A study of Mus musculus with 6 samples.

Results

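The mitochondrial genome transcripts of the mouse ovary were described as all genes whose symbol starts with mt-, which gave 37 of the 55536 genes in the deposited tables. They comprise 13 protein genes, 2 rRNA genes and 22 tRNA genes, and all lie on the mitochondrial chromosome of GRCm38. RNA was taken from both ovaries of each of 3 M1 mice and 3 Control mice, female ICR mice 10 weeks of age, in the evening of proestrus at 20 h. The phenylhydrazone M1, used as a promoter of the fusion of mitochondria, was injected intraperitoneally at 10 mg/kg at 9 h and at 16 h (11 h and 4 h before collection) in a vehicle of 5% DMSO and 10% Tween80 in PBS. The labels also describe the M1 libraries as cycle disrupted and the Control libraries as normal. What the Control mice were injected with is not given in the sources used here. Each mouse gave 1 library, so that the spread within a group is that between mice.

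The mitochondrial genome is a small circle that is transcribed from both strands into long precursors. The tRNAs lie between most of the other genes like punctuation, and their excision releases the mRNAs and rRNAs. Most genes are read from the template called the heavy strand, and a few from the light strand. Its mRNAs encode core subunits of complexes I, III and IV and of ATP synthase, while all other subunits are encoded in the nucleus, and its rRNAs and tRNAs serve the ribosomes within the organelle. In the ovary, mitochondria also hold the side-chain cleavage enzyme that begins steroid synthesis, and oocytes carry very many of them.

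Of the 37 genes, 28 are read from the heavy strand (12 protein, 2 rRNA and 14 tRNA genes) and 9 from the light strand (mt-Nd6 and 8 tRNA genes). The libraries were made from RNA bound to oligo-dT beads, which favours tails of poly(A), so that the levels of tRNAs and rRNAs are those of the molecules that passed this step. The assigned counts ranged from 12536440 to 15446509 in the M1 libraries and from 13684834 to 18651402 in the Control libraries. All 8 granulosa, 6 luteal, 5 theca and interstitial and 10 oocyte markers had enough counts to be tested, so that defining markers of the labelled tissue were present. No pair of libraries agreed within sampling noise.

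Transcripts of the mitochondrial genome took a larger share of the library in every M1 mouse than in any Control mouse. The share of all assigned counts was 5.98%, 6.45% and 7.35% in M1 mice 1, 2 and 3, against 5.14%, 4.29% and 3.82% in Control mice 1, 2 and 3. The groups averaged 6.59% ± 0.70 in M1 and 4.42% ± 0.671 in Control (SD, n = 3 each) with a log2 ratio of 0.58, and no M1 mouse lay within the range of the Control mice. The 95% Wilson interval of the share reached at most 0.0144 percentage points to either side, which covers counting error only and is far below the spread between mice. The summed counts were also higher in M1, at 923149, 965736 and 921859, against 703612, 689616 and 712078 in Control, although M1 mouse 3 had the shallowest library. As a share of the authors' TPM, which scale by gene length, the genes took 15.9%, 15.9% and 18.8% in M1. In Control the TPM share was 14.3%, 12.2% and 11.2%, without overlap and with a log2 ratio of 0.43. The libraries also differed in their counts by gene length, as given below, and its part in the share was not tested. Whether more mitochondrial RNA per cell or more cells rich in mitochondria gave the higher share cannot be told apart in bulk ovaries. Each share is relative to the other genes of the same library, and 3 mice against 3 cannot give an exact permutation p below 0.1.

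**Figure D1:**
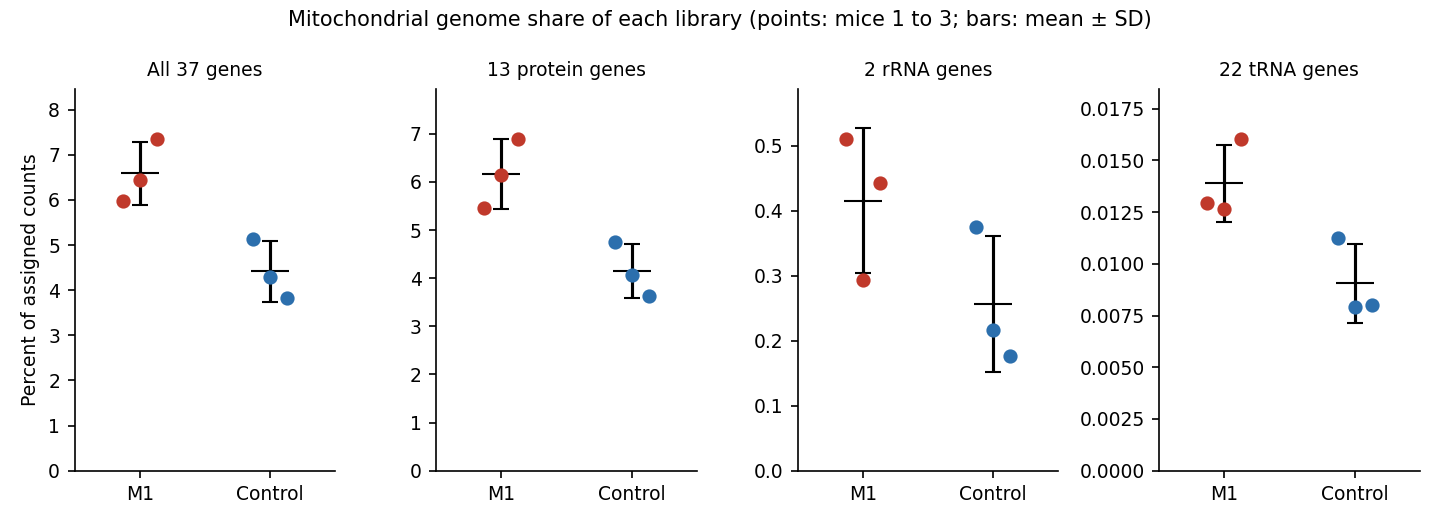
Percent of assigned counts (y axis, from 0) in the 3 M1 mice (red, left) and the 3 Control mice (blue, right) for all 37 genes and for the protein, rRNA and tRNA genes, with bars for the mean ± SD. The points of the groups do not overlap for all genes (5.98% to 7.35% in M1, 3.82% to 5.14% in Control), the protein genes or the tRNA genes, and they overlap for the rRNA genes.

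The protein genes held most of these counts. Their share of the assigned counts was 5.45%, 6.14% and 6.90% in M1, against 4.76%, 4.06% and 3.63% in Control, without overlap. The 2 rRNA genes took 0.511%, 0.293% and 0.442% in M1, against 0.375%, 0.216% and 0.177% in Control, and here M1 mouse 2 lay below Control mouse 1. The 22 tRNA genes took only 0.013%, 0.0127% and 0.016% in M1, against 0.0113%, 0.00793% and 0.00799% in Control, without overlap. The log2 ratio of the group means was 0.57 for the protein, 0.70 for the rRNA and 0.62 for the tRNA genes, and the makeup within the mitochondrial counts is given next. Protein genes made up 91.2%, 95.3% and 93.8% of the mitochondrial counts in M1, against 92.5%, 94.8% and 95.1% in Control. The rRNA genes made up 8.55%, 4.54% and 6.01% in M1, against 7.29%, 5.03% and 4.64% in Control, highest in mouse 1 of either group. These shares of mitochondrial counts overlapped between the groups for all 3 classes.

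Levels between genes are compared per length, as the authors' TPM (transcript share scaled by gene length). The mean over all 6 mice was highest for mt-Co1 (chrM:5328-6872), the catalytic core of complex IV, which also had more counts than any other gene in each of the 6 libraries. Its TPM was 46534 ± 4729 in M1 and 33414 ± 4704 in Control (SD, n = 3 each). It was followed by mt-Nd1 (chrM:2751-3707), a membrane subunit of complex I, at 27554 ± 1859 TPM in M1 and 20331 ± 3339 TPM in Control. mt-Cytb (chrM:14145-15288), the cytochrome b of complex III, had 26046 ± 4536 TPM in M1 and 19947 ± 2946 TPM in Control, within the spread of mt-Nd1. Then came the complex I subunits mt-Nd2, mt-Nd6, mt-Nd4 and mt-Nd5, with mean TPM from 9746 to 16774 in M1 and from 8163 to 12194 in Control. Within M1, the means of mt-Nd6 and mt-Nd4 differed by less than the larger SD of the pair. TPM divide by the whole gene length, while 63.6% of mt-Nd4 and 31.3% of mt-Co1 lie in a stretch copied in the nucleus, described below. The levels of both, and the place of mt-Nd4 in this order, are therefore uncertain. Below these 7 protein genes came both rRNA genes and then the tRNA mt-Tp, at 3318 ± 192 TPM in M1 and 2107 ± 120 TPM in Control.

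**Figure D2:**
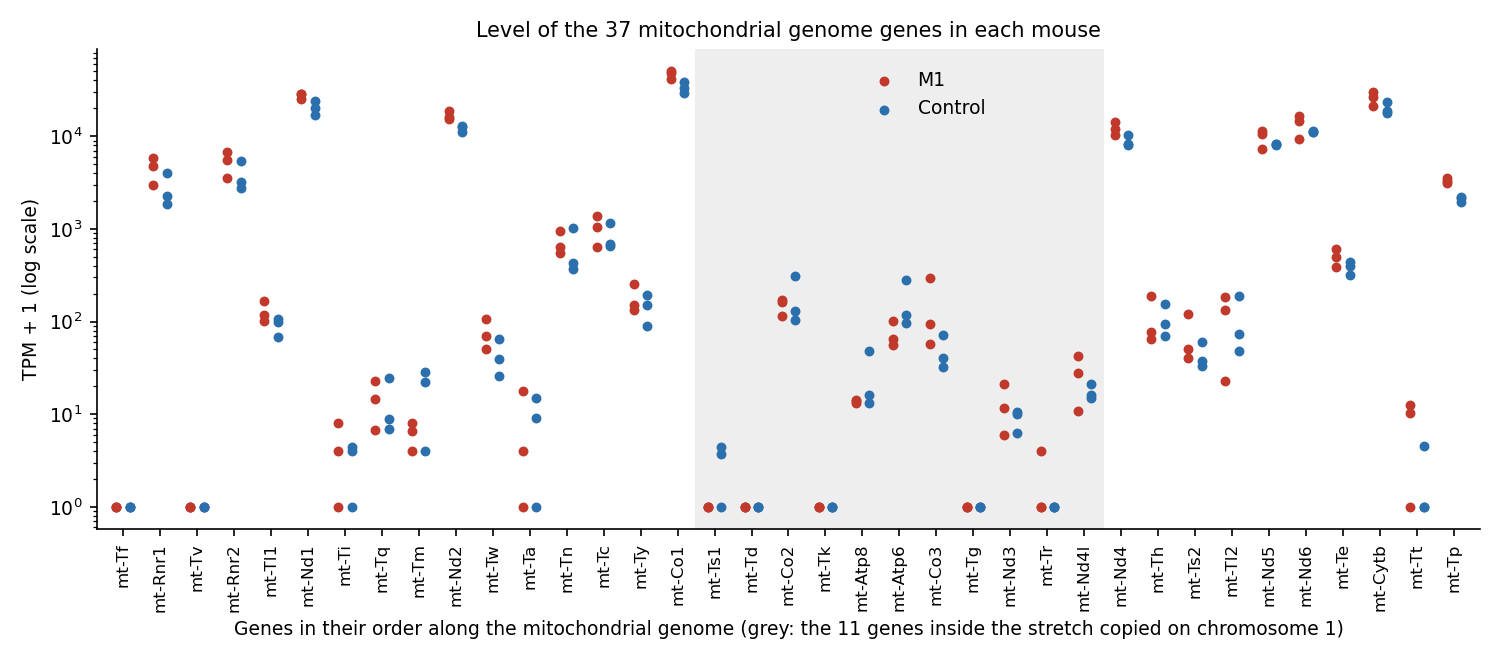
TPM + 1 on a log scale (y axis) for each of the 37 genes in their order along the mitochondrial genome (x axis), 1 point per mouse, M1 in red to the left and Control in blue to the right. The 7 protein genes outside the grey band lie between 7329 and 50567 TPM, while the 6 protein genes within it lie between 5.03 and 308 TPM, and points at 1 are values of 0 TPM.

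The remaining 6 protein genes stood apart, with levels orders of magnitude below their neighbours. mt-Co2 and mt-Co3, further subunits of complex IV, mt-Atp8 and mt-Atp6 of ATP synthase, and mt-Nd3 and mt-Nd4l of complex I ranged from 5.03 to 308 TPM over the mice, against 7329 to 50567 TPM for the other 7. Together they held 987, 1086 and 1790 counts in M1, against 919, 2121 and 1030 in Control, while the other 7 held 841243, 918911 and 862633 counts in M1, against 649879, 651500 and 676492 in Control. These 6 genes lie side by side, between mt-Co1 and mt-Nd4. The same stretch has a copy in the nucleus, on the minus strand of chromosome 1 (chr1:24611535-24616197 of GRCm38, 4663 bases), where the annotation (GENCODE vM21) lists 7 pseudogenes in a row. Of Gm29216 (chr1:24615706-24616197), only 483 bases aligned, to mt-Co1. Aligned to the mitochondrial transcripts, these 7 pseudogenes lie in the same order over the span chrM:6390-11042. Over their aligned bases they match the genes base for base except at 2 positions. In all, 11 mitochondrial genes lie wholly inside that span (the 6 protein genes and the tRNAs mt-Ts1, mt-Td, mt-Tk, mt-Tg and mt-Tr), 2 lie partly inside it (mt-Co1 with 31.3% and mt-Nd4 with 63.6% of its length), and 24 lie outside it.

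Both positions that differ are shown here because they are the only aligned bases that set the pseudogenes apart from the mitochondrial genes. They are in capitals and counted from 1 at the first base of the mitochondrial gene. They are T3C between mt-Nd3 and Gm28438, and A1066T between mt-Co1 and Gm29216. The sequences are from the GENCODE vM21 transcripts, and the pseudogene stretches lie at chr1:24613060-24613119 and chr1:24616129-24616188.
mt-Nd3, bases 1 to 60: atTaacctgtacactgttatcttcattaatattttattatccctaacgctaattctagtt
Gm28438, aligned bases: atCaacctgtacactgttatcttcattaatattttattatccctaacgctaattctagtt
mt-Co1, bases 1063 to 1122: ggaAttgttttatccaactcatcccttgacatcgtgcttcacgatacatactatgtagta
Gm29216, aligned bases: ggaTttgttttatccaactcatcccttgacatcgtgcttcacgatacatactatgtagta

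A read that lies wholly within such identical bases matches both places equally well and cannot be told apart. How reads with several matches were treated in the counting is not given in the sources used here, and its part in the low counts was not tested. The levels and fold changes of these 11 genes are therefore uncertain, and so is the part of mt-Co1 and mt-Nd4 inside the span. No annotated copy was found for the 5 tRNAs or for mt-Atp8 itself. For them only the order and positions of the copied genes around them are known here, not the bases.

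The pseudogenes themselves also had counts, and more of them than the 11 genes together in each library. The 7 pseudogenes on chromosome 1 summed to 7805, 3425 and 5658 counts in M1, against 2881, 3329 and 2558 in Control. The lowest M1 mouse lay just above the highest Control mouse. As a share of the assigned counts the groups did not overlap either (0.0229% to 0.0505% in M1, 0.0137% to 0.0211% in Control). As a share of TPM they did overlap (0.104% to 0.267% in M1, 0.0782% to 0.127% in Control). The copy of mt-Co2, Gm28661, had 98.99, 49.1 and 65.5 CPM in M1, against 20.8, 36.1 and 29.9 CPM in Control, where CPM are counts scaled to the library size after TMM normalization. Its groups did not overlap, and its log2 fold change was 1.30 (SE 0.29) with an adjusted p of 0.195 by edgeR's quasi-likelihood test and of 0.00373 by DESeq2. The copy of mt-Co3, Gm28437, had 157, 35.6 and 136 CPM in M1, against 32.1, 57.2 and 39.9 CPM in Control, so that M1 mouse 2 lay among the Control mice. The log2 fold changes of the others were 1.34 for Gm10925 (copy of mt-Atp6), 1.33 for Gm29216 (of mt-Co1), 0.78 for Gm28439 (of mt-Nd4), 0.53 for Gm28438 (of mt-Nd3) and -0.50 for Gm10222 (of mt-Nd4l). By edgeR none of the 7 passed, while 4 were higher in M1 at an unadjusted p under 0.05, beside 7.7% of all tested genes. By DESeq2 3 were called higher, beside 1.3% of all genes with an adjusted p.

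Copies on other chromosomes differed from the mitochondrial genes at more bases. Gm13340 on chromosome 2 covers mt-Co1 over its whole length of 1545 bases with 97.6% identity and 37 differences. The stretch with the densest differences is shown because it is where a read could be assigned to mt-Co1 or to the copy, with the 5 differing bases (A462G, A468G, T501C, C519T and G534A) in capitals. The copy's stretch is chr2:22589114-22589193.
mt-Co1, bases 455 to 534: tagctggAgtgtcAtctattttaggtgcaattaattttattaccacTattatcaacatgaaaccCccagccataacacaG
Gm13340, aligned bases: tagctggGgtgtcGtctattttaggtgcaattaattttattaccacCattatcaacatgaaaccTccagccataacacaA
Gm13340 had 20.7, 67.6 and 78.1 CPM in M1, against 51.5, 46.1 and 40.8 CPM in Control, and the groups overlapped (log2 fold change 0.26, SE 0.42, edgeR adjusted p = 0.78). Gm13341 and Gm13339 on chromosome 2 and Gm4076 on chromosome 13, copies of mt-Co2, mt-Nd2 and mt-Nd5, averaged from 0.824 to 2.05 CPM in the groups, and their groups also overlapped.

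**Figure D3:**
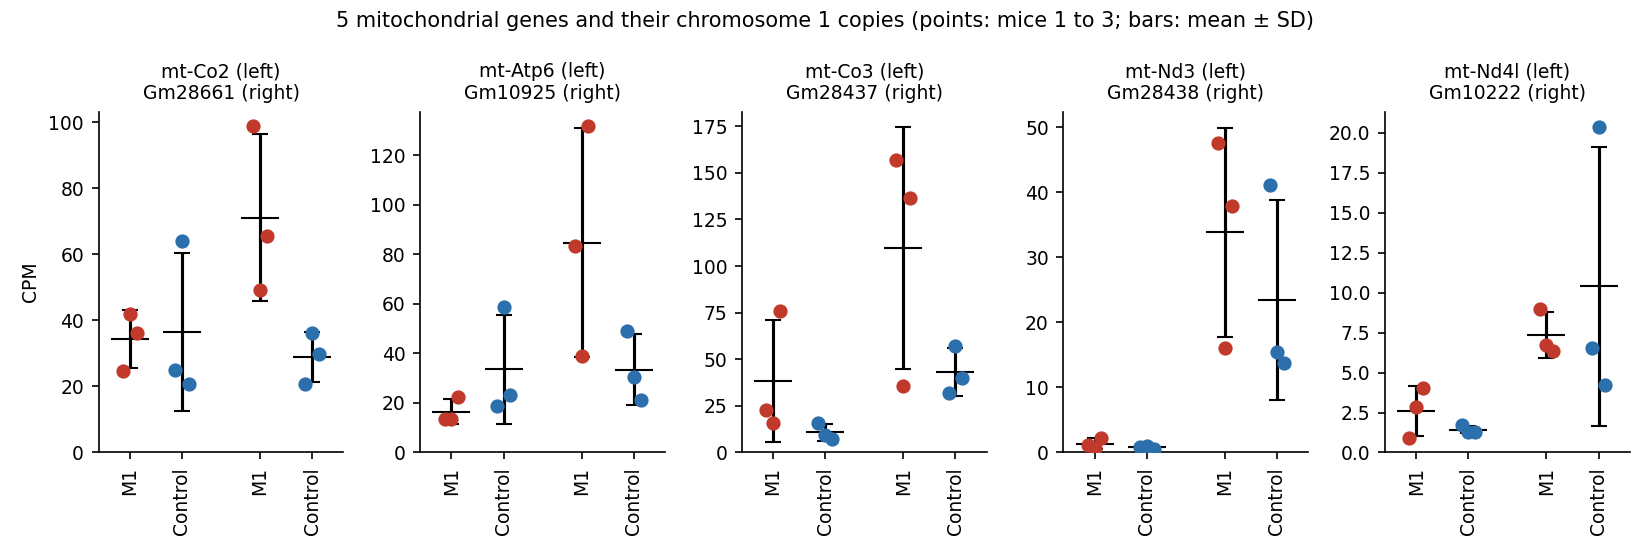
CPM (y axis, from 0) of 5 mitochondrial genes inside the copied stretch (left of each panel) and of their chromosome 1 copies (right of each panel) in 3 M1 mice (red) and 3 Control mice (blue), with bars for the mean ± SD. Both kinds of gene reach at most 157 CPM, and only Gm28661 among the 5 copies and mt-Co3 among the 5 genes have every M1 point above every Control point.

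Between the groups, 25 of the 37 genes had enough counts to be tested, the 13 protein genes, both rRNA genes and 10 tRNA genes. By edgeR's quasi-likelihood test with Benjamini-Hochberg adjustment over 17499 genes, none of them passed both limits of a call (adjusted p under 0.05, fold change over 1.5), where 0.00571% of all tested genes were called higher and 0% lower. At an unadjusted p under 0.05, 7 of the 25 were higher in M1 and 1 was lower, beside 7.7% and 9.17% of all tested genes. DESeq2 called 5 higher (mt-Nd1, mt-Nd2, mt-Co1, mt-Nd4 and mt-Tp) and none lower, where it called 1.3% and 1.5% of all genes with an adjusted p, and limma-voom called 0. For 8 of the 25 every M1 mouse lay above every Control mouse, as for 11.4% of all tested genes, and for none did every M1 mouse lie below. The log2 fold change was positive for 22 of the 25, against 49.5% of all tested genes.

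Genes of the same precursor are not independent of each other, and neither are their counts. The median log2 fold change was 0.62 over the 13 protein genes, with 10 positive and 3 negative, and -0.0049 over all tested genes. Over the 7 protein genes not inside the copied span it was 0.62, with a range from 0.45 to 0.66 and no negative value. Over the 6 inside it was 0.32, with a range from -1.03 to 1.83. Values of the 7 were thus close to each other, while those of the 6 scattered to both sides of 0.

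**Figure D4:**
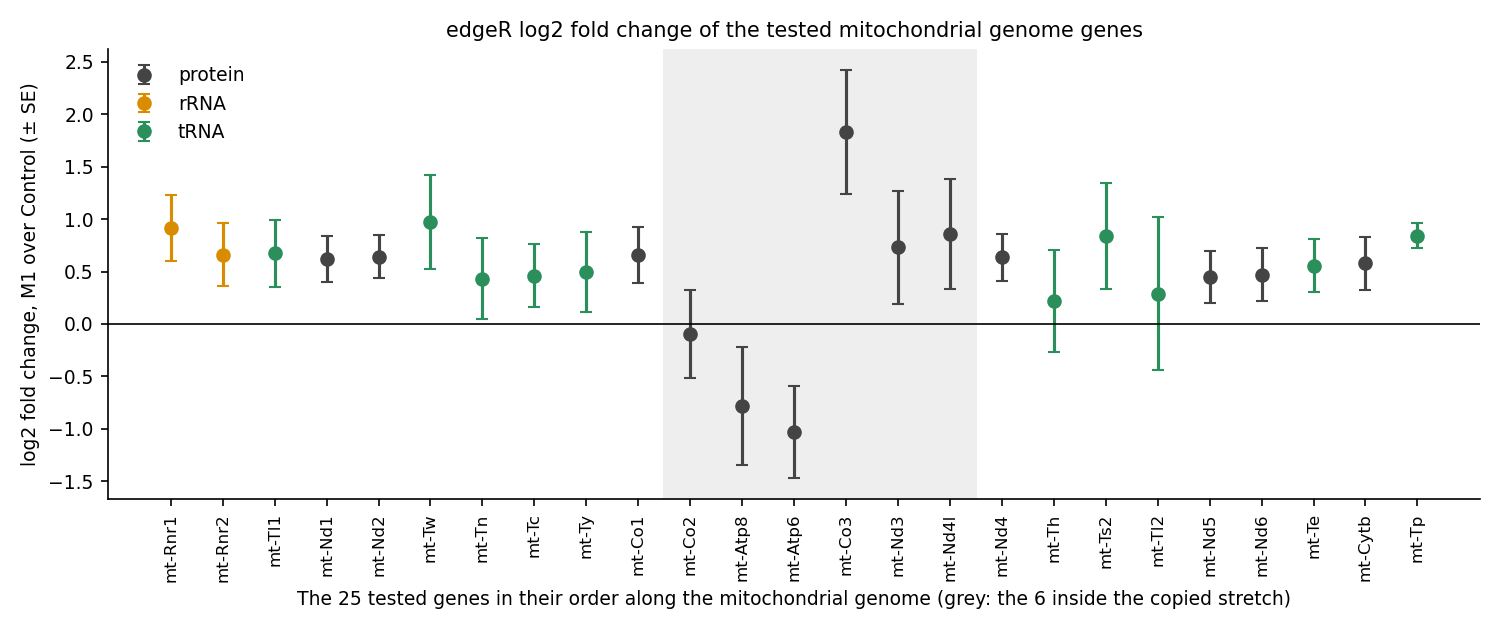
edgeR log2 fold change, M1 over Control, with its SE (y axis) for the 25 tested genes in their order along the mitochondrial genome (x axis), protein genes in grey-black, rRNA genes in orange and tRNA genes in green. Outside the grey band all values lie above 0, between 0.22 and 0.97, and the 6 genes within it run from -1.03 to 1.83.

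Fold changes of long as well as short genes depended on how the data were scaled. With an offset for gene length, fitted to all genes in each library, the median of the 13 protein genes was 0.35. Of the 25 genes, 18 were then positive and 7 negative. The median of the 7 protein genes not inside the copied span was 0.36 with the offset, against 0.62 without it. For mt-Nd5, the longest of the genes, the value was 0.28 with the offset and 0.45 without it. Nuclear genes under 1000 bases held 1.53%, 1.83% and 1.80% of the counts in M1, against 1.63%, 1.33% and 1.30% in Control, so that this measure moved with the groups and placed Control mouse 1 among the M1 mice. Its part in the mitochondrial values was not tested, and the mitochondrial protein genes are 204 to 1824 bases long and the tRNA genes 59 to 75.

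Among complex I genes outside the copied span, mt-Nd1 had 8661, 8758 and 8891 CPM in M1, against 6456, 5884 and 4771 CPM in Control. All 3 M1 mice were alike and above the Control mice, with a log2 fold change of 0.62 (SE 0.22, edgeR adjusted p = 0.247, DESeq2 adjusted p = 0.0137). mt-Nd2 (chrM:3914-4951), a membrane subunit, had 5014, 5984 and 6423 CPM in M1, against 3696, 4072 and 3387 CPM in Control, also without overlap (log2 fold change 0.64, SE 0.21, edgeR adjusted p = 0.23, DESeq2 adjusted p = 0.0108). mt-Nd4 (chrM:10167-11544), likewise a membrane subunit and partly inside the span, had 4502, 5897 and 6413 CPM in M1, against 4043, 3505 and 3252 CPM in Control. M1 mouse 1 was close to Control mouse 1 there, and the log2 fold change was 0.64 (SE 0.22, edgeR adjusted p = 0.245, DESeq2 adjusted p = 0.0328). Over all alternatives tried, the adjusted p ran from 0.0137 to 0.741 for mt-Nd1, from 0.0108 to 0.644 for mt-Nd2 and from 0.0328 to 0.60 for mt-Nd4.

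In mt-Nd5 and mt-Nd6, which lie next to each other, the groups overlapped through M1 mouse 1. mt-Nd5 (chrM:11742-13565), the largest of the complex I subunits encoded here, had 4192, 6919 and 6788 CPM in M1, against 4156, 4577 and 4387 CPM in Control. mt-Nd6 (chrM:13552-14070), the only protein gene of the light strand, which overlaps the end of mt-Nd5 by 14 bases on the opposite strand, had 1533, 2761 and 2788 CPM in M1, against 1660, 1775 and 1681 CPM in Control. In both genes M1 mice 2 and 3 were above all Control mice, and M1 mouse 1 lay within or below the range of the Control mice. Their log2 fold changes were 0.45 and 0.47 (edgeR adjusted p = 0.395 and 0.376, 3 mice a group), and without M1 mouse 1 they were 0.66 and 0.71 with no call. With the gene length offset the value of mt-Nd6 was 0.10.

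For complex IV, mt-Co1 had 23116, 22983 and 25575 CPM in M1, against 16822, 15522 and 13062 CPM in Control. Its groups did not overlap, and its log2 fold change was 0.66 (SE 0.26, edgeR adjusted p = 0.278, DESeq2 adjusted p = 0.00547, and from 0.00547 to 0.793 over all alternatives). mt-Co3 had 22.99, 16.02 and 75.99 CPM in M1, against 15.7, 9.38 and 7.17 CPM in Control. Every M1 mouse was above every Control mouse, yet M1 mouse 2 only just, and the log2 fold change of 1.83 (SE 0.59, edgeR adjusted p = 0.23) was 0.87 without M1 mouse 3. mt-Co2 had 24.7, 42.0 and 36.1 CPM in M1, against 25.0, 64.1 and 20.7 CPM in Control, with the highest value in Control mouse 2 (log2 fold change -0.10, and 0.59 without that mouse). Of these 3 subunits of the same complex, mt-Co2 and mt-Co3 lie inside the copied span.

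For complex III, mt-Cytb had 7621, 10971 and 11330 CPM in M1, against 7582, 6251 and 6207 CPM in Control. The groups did not overlap, although M1 mouse 1 and Control mouse 1 were nearly equal, and the log2 fold change was 0.58 (SE 0.25, edgeR adjusted p = 0.305).

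For ATP synthase, mt-Atp6 had 13.5, 13.6 and 22.2 CPM in M1, against 18.6, 58.8 and 23.4 CPM in Control. It was the only tested member with an unadjusted p under 0.05 in the lower direction (log2 fold change -1.03, SE 0.44, edgeR adjusted p = 0.294), and without Control mouse 2 the value was -0.35. mt-Atp8 had 0.844, 0.909 and 0.87 CPM in M1, against 0.888, 0.766 and 2.82 CPM in Control, where Control mouse 3 alone was high (log2 fold change -0.78, and 0.08 without that mouse). Both genes are read from a shared mRNA and their coding sequences overlap. That overlap is shown in capitals, because a fragment there belongs to both genes (chrM:7907-7989, from the GENCODE vM21 transcripts).
mt-Atp8 into mt-Atp6: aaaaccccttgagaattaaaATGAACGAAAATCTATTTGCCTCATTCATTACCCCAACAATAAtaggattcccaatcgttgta
The capitals cover 43 bases, the start of mt-Atp6 lying within the end of mt-Atp8. The other shared mRNA holds mt-Nd4l and mt-Nd4, which overlap by 7 bases. mt-Nd4l had 0.909, 2.87 and 4.03 CPM in M1, against 1.71, 1.28 and 1.30 CPM in Control, with M1 mouse 1 lowest of all (log2 fold change 0.86, SE 0.53). mt-Nd3 had 1.17, 0.63 and 2.29 CPM in M1, against 0.888, 1.02 and 0.543 CPM in Control, with overlap (log2 fold change 0.73, SE 0.54).

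Among the 7 protein genes not inside the span, the makeup of the counts was much alike in both groups. mt-Co1 held 42.3%, 35.8% and 37.5% of their counts in M1, against 37.9%, 37.3% and 35.5% in Control. mt-Nd5 held 7.67%, 10.8% and 9.95% in M1, against 9.36%, 11.01% and 11.9% in Control, and mt-Nd1 held 15.9%, 13.6% and 13.04% in M1, against 14.5%, 14.1% and 12.98% in Control. M1 mouse 1 was the library that stood apart, with the highest share of mt-Co1 and mt-Nd1 and the lowest of mt-Nd5, mt-Nd6 and mt-Cytb. The share of each of the 7 genes overlapped between the groups. The ratio of mt-Nd1 to mt-Cytb counts, which lie near the start and the end of the heavy strand transcript, was 1.14, 0.798 and 0.785 in M1, against 0.851, 0.941 and 0.769 in Control.

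The rRNA genes mt-Rnr1 (chrM:70-1024) and mt-Rnr2 (chrM:1094-2675) encode the RNAs of the small and the large subunit of the mitochondrial ribosome. mt-Rnr1 had 1758, 1027 and 1480 CPM in M1, against 1083, 658 and 522 CPM in Control. mt-Rnr2 had 3368, 2040 and 2903 CPM in M1, against 2421, 1558 and 1275 CPM in Control. In both genes M1 mouse 2 lay below Control mouse 1. The log2 fold changes were 0.91 (SE 0.31) for mt-Rnr1 and 0.66 (SE 0.30) for mt-Rnr2 with edgeR adjusted p = 0.243 and 0.314, and without Control mouse 1 they were 1.27, which was called (adjusted p = 0.0484, the lowest of a range up to 0.544 over all alternatives), and 0.97.

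The ratio of the rRNAs to each other does not depend on the total of the library. mt-Rnr2 over mt-Rnr1 counts was 1.92, 1.99 and 1.96 in M1, against 2.23, 2.37 and 2.44 in Control. Every M1 mouse lay below every Control mouse, with a log2 difference of -0.26 between the group means. A two-sided exact permutation test gave p = 0.1, the smallest that 3 mice against 3 allow, and 0.4 after adjustment over the 4 ratios tested. The difference stayed between -0.30 and -0.23 when each library was left out. Both genes lie outside the copied span. mt-Rnr1 is 955 and mt-Rnr2 1582 bases long, and the libraries differed in their counts by gene length. With the gene length offset the log2 fold changes were 0.70 for mt-Rnr1 and 0.50 for mt-Rnr2. The part of gene length in the ratio was not tested.

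The other 3 ratios overlapped between the groups. mt-Nd6 over mt-Nd5, which compares neighbours on opposite strands, was 0.366, 0.399 and 0.411 in M1, against 0.399, 0.388 and 0.383 in Control (exact permutation p = 1). mt-Atp6 over mt-Atp8 was 16, 14.9 and 25.5 in M1, against 20.9, 76.8 and 8.29 in Control (exact permutation p = 0.8). mt-Nd4 over mt-Nd4l was 4951, 2056 and 1590 in M1, against 2366, 2746 and 2495 in Control (exact permutation p = 1), for genes of a shared mRNA of which the smaller lies inside the span.

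**Figure D5:**
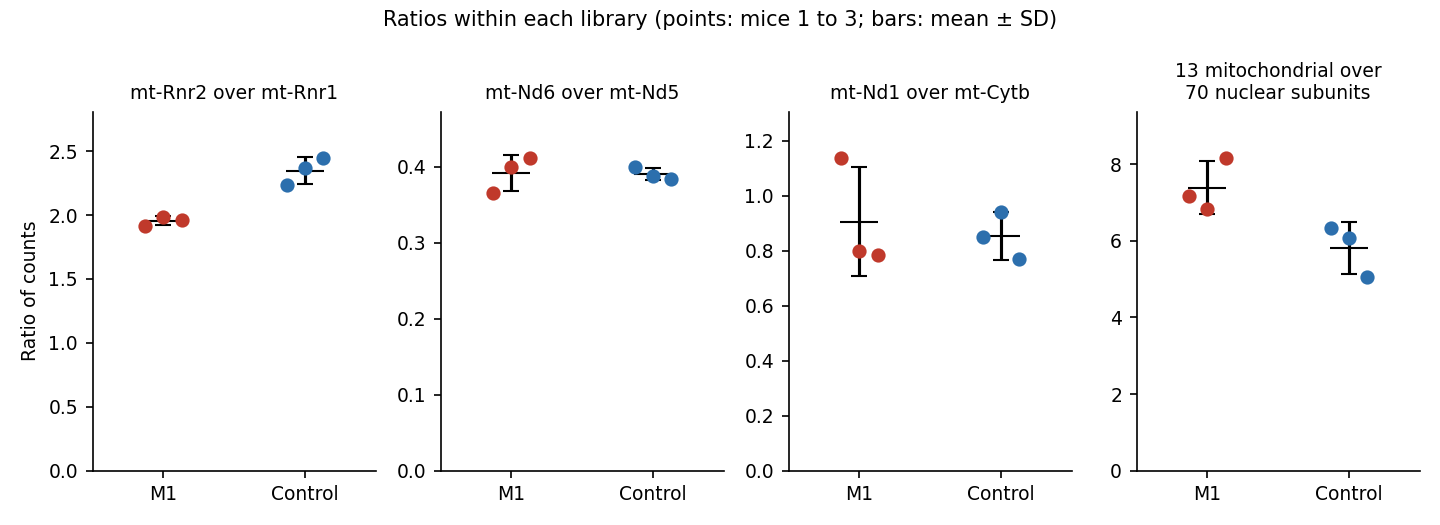
Ratios of counts within each library (y axis, from 0) in 3 M1 mice (red, left) and 3 Control mice (blue, right), with bars for the mean ± SD. The M1 points lie below the Control points for mt-Rnr2 over mt-Rnr1 (1.92 to 1.99 against 2.23 to 2.44), above them for the mitochondrial over the nuclear subunits, and the points overlap for the other ratios.

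Transcripts of the light strand took 2.75%, 4.27% and 4.03% of the mitochondrial counts in M1, against 3.65%, 4.202% and 4.54% in Control. The groups overlapped, and the means differed by -0.446 percentage points, or by 0.0227 without M1 mouse 1. Of the assigned counts of the whole library, the heavy strand genes took 5.81%, 6.17% and 7.06% in M1, against 4.95%, 4.11% and 3.64% in Control, without overlap. The light strand genes took 0.164%, 0.276% and 0.296% in M1, against 0.188%, 0.18% and 0.173% in Control, where M1 mouse 1 was the lowest of all 6. Nearly all counts of the light strand were those of mt-Nd6. Whether reads were counted by strand is not given in the sources used here, so that reads from the opposite strand of the same place cannot be told apart.

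The order was the reverse for tRNA genes, where the light strand held from 87.1% to 94.5% of the counts. The 8 light strand tRNA genes summed to 1743, 1794 and 1881 counts in M1, against 1371, 1175 and 1370 in Control, and the 14 heavy strand tRNA genes to 258, 104 and 131 in M1, against 169, 100 and 121 in Control. Fragments of these libraries are longer than a tRNA gene, so a fragment of a heavy strand precursor mostly covers a neighbouring gene too, and how fragments over several genes were counted is not given in the sources used here. Its part in these counts was not tested. The 4 light strand tRNAs with the most counts are shown beside 3 of the heavy strand, mt-Tf with 0 counts and mt-Tl1 and mt-Th with few, written 5′ to 3′ as DNA from the GENCODE vM21 transcripts with the anticodon in capitals.
mt-Tp (proline, light): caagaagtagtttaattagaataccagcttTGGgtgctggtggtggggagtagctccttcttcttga
mt-Tc (cysteine, light): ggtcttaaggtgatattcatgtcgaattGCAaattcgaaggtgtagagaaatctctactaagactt
mt-Tn (asparagine, light): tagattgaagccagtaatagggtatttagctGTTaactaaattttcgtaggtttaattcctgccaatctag
mt-Te (glutamate, light): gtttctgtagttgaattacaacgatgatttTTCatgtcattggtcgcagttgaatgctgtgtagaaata
mt-Tl1 (leucine, heavy): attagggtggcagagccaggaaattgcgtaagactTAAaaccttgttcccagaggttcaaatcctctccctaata
mt-Tf (phenylalanine, heavy): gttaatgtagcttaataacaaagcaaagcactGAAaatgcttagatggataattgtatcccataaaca
mt-Th (histidine, heavy): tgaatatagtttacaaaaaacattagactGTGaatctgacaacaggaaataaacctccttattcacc
They are 66 to 75 bases long, at chrM:15356-15422 (mt-Tp), chrM:5192-5257 (mt-Tc), chrM:5089-5159 (mt-Tn), chrM:14071-14139 (mt-Te), chrM:2676-2750 (mt-Tl1), chrM:1-68 (mt-Tf) and chrM:11546-11612 (mt-Th).

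mt-Tp, the tRNA for proline and the gene nearest to the start of the light strand transcript, had the smallest p of the 25 tested genes. Its counts were 1012, 1143 and 974 in M1, against 597, 631 and 794 in Control, from 38.8% to 60.2% of all tRNA counts of a library. It had 65.7, 79.9 and 77.0 CPM in M1, against 40.8, 40.3 and 43.1 CPM in Control. The groups were far apart beside their spread, with a log2 fold change of 0.84 (SE 0.12, edgeR unadjusted p = 1.31e-04, adjusted p = 0.195). DESeq2 gave an adjusted p of 2.47e-04, and over all alternatives it ran from 2.47e-04 to 0.519. With the gene length offset the value was 0.30, against 0.84 without the offset. Without Control mouse 1, mt-Tp was called by edgeR (adjusted p = 0.0354).

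The other 9 tested tRNAs gave no call, with log2 fold changes from 0.22 to 0.97. After mt-Tp, mt-Tc and mt-Tn had the most counts, and they lie with mt-Ty in the tRNA cluster between mt-Nd2 and mt-Co1. mt-Tc had 21.4, 14.97 and 29.8 CPM in M1, against 21.6, 13.9 and 12.6 CPM in Control, mt-Tn had 14.4, 14.1 and 22.2 CPM in M1, against 20.6, 9.32 and 7.71 CPM in Control, and mt-Ty, the tRNA for tyrosine, had 3.12, 3.22 and 5.53 CPM in M1, against 3.62, 3.06 and 1.74 CPM in Control. In all 3, Control mouse 1 lay among the M1 mice. mt-Te, which lies next to mt-Nd6, had 8.38, 12.2 and 13.8 CPM in M1, against 6.22, 8.30 and 8.85 CPM in Control, with M1 mouse 1 among the Control mice. Of the heavy strand tRNAs, mt-Tl1, which follows mt-Rnr2, was the only further tRNA without overlap, at 3.90, 2.73 and 2.85 CPM in M1, against 2.26, 2.23 and 1.47 CPM in Control (log2 fold change 0.67, SE 0.32, edgeR adjusted p = 0.33). mt-Tw, mt-Ts2, mt-Th and mt-Tl2, for tryptophan, serine, histidine and leucine, averaged from 0.741 to 2.58 CPM in the groups, with log2 fold changes of 0.97, 0.84, 0.22 and 0.29 and overlap. With the gene length offset the values of mt-Tc, mt-Te, mt-Th and mt-Tl2 were -0.01, -0.03, -0.19 and -0.06.

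The 12 tRNA genes not tested had at most 8 counts in any library. mt-Tf, mt-Tv, mt-Td, mt-Tk and mt-Tg had none in any of the 6, which allows up to 3 counts in a library or 0.161 to 0.239 CPM. mt-Tq had 2 to 8 counts, mt-Tm 1 to 8, mt-Ta 0 to 6, mt-Tt 0 to 4 and mt-Ti 0 to 2. mt-Ts1 and mt-Tr, inside the copied span, had 2 counts and 1 count in all. No difference between M1 and Control was detectable for these genes at this depth.

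The nuclear partners of these transcripts were also measured. The 70 nuclear subunits of complexes I, III, IV and ATP synthase held 0.761%, 0.90% and 0.846% of all assigned counts in M1, against 0.752%, 0.67% and 0.72% in Control, without overlap. Of 69 tested, 62 were positive and 7 negative, with a median log2 fold change of 0.41, while 49.5% of all tested genes were positive. At an unadjusted p under 0.05 by edgeR, 46 were higher in M1, beside 7.7% of all tested genes. None was called by edgeR, and 7 were called higher by DESeq2, which called 1.3% of all genes with an adjusted p. The part of gene length in these values was not tested. The 13 mitochondrial protein genes held 7.16, 6.82 and 8.15 times the counts of these nuclear genes in M1, against 6.33, 6.06 and 5.04 times in Control. Every M1 mouse lay above every Control mouse, and the mean log2 ratio differed by 0.35. Nearly all of the mitochondrial counts in this ratio came from the 7 protein genes not inside the copied span. From summed TPM, the mean log2 ratio differed by 0.24, also without overlap. Taken as the mean of log2 CPM over genes, in which each of the 6 low genes weighs as much as mt-Co1, the difference was 0.05 and the groups overlapped.

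By complex, 33 of 36 nuclear complex I subunits, 9 of 9 of complex III, 9 of 10 of complex IV and 11 of 14 of ATP synthase had positive log2 fold changes, with medians of 0.42, 0.35, 0.49 and 0.31. For comparison, mt-Nd1, mt-Cytb and mt-Co1 were at 0.62, 0.58 and 0.66. The smallest p-values were those of Uqcrq of complex III, at 129, 160 and 155 CPM in M1, against 86.3, 87.1 and 81.5 CPM in Control (log2 fold change 0.80, SE 0.12, edgeR adjusted p = 0.195, DESeq2 adjusted p = 3.27e-04). Ndufb7, an accessory subunit of complex I, had 58.2, 68.5 and 66.6 CPM in M1, against 41.8, 42.2 and 43.3 CPM in Control (log2 fold change 0.60). Cox6a1 of complex IV and Atp5j2 of ATP synthase had log2 fold changes of 0.61 and 0.59, also without overlap.

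Of 40 nuclear genes whose products make and process mitochondrial RNA, 22 had positive and 18 negative log2 fold changes with a median of 0.07. None was called by edgeR or DESeq2. Every M1 mouse lay above every Control mouse for 5 of the 40 and below for 3, beside 11.4% and 11.2% of all tested genes. At an unadjusted p under 0.05 by edgeR, 2 were higher in M1 and 0 lower, beside 7.7% and 9.17% of all tested genes. These 2 were Fastk, which binds the mt-Nd6 mRNA, and Hsd17b10, a subunit of the enzyme that cuts the 5′ end of tRNAs. Fastk had 92.9, 93.8 and 105 CPM in M1, against 88.7, 67.2 and 70.1 CPM in Control. The log2 fold changes of Fastk and Hsd17b10 were 0.37 and 0.31. Fastkd2 and Dhx30, which bind RNA in the assembly of the mitochondrial ribosome, had log2 fold changes of -0.32 and -0.25, and Rexo2, which degrades short RNAs, had 0.24, each without overlap and without a call. Of 16 genes of mitochondrial DNA replication and nucleotide supply, 7 were positive and 9 negative with a median of -0.01. Lig3, the ligase of mitochondrial DNA, had 36.6, 36.2 and 29.9 CPM in M1, against 44.8, 51.7 and 64.3 CPM in Control (log2 fold change -0.65, SE 0.17, edgeR adjusted p = 0.201, DESeq2 adjusted p = 0.0568). Every M1 mouse lay below every Control mouse there. Ssbp1, the protein that coats single-stranded mitochondrial DNA, and Mpv17 had log2 fold changes of 0.44 and 0.45, and Polg and Twnk, the polymerase and the helicase, had -0.30 and -0.36.

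Markers of cell types were set beside the mitochondrial share. The 10 oocyte markers summed to 372, 254 and 449 CPM in M1, against 713, 493 and 441 CPM in Control, with overlap. Of these 10, 9 had negative log2 fold changes and 1 a positive one, with a median of -0.52. At an unadjusted p under 0.05 by edgeR, 4 were lower in M1, beside 9.17% of all tested genes. None was called by edgeR, and 1 was called lower by DESeq2, which called 1.5% of all genes with an adjusted p lower. The 6 luteal markers summed to 7840 to 17896 CPM in M1 and 5036 to 14397 CPM in Control. Of these, 4 were positive and 2 negative. An edgeR p below 0.05 before adjustment was found for 1 of the 6, higher in M1, beside 7.7% of all tested genes in that direction. The 8 granulosa markers summed to 2135 to 3983 CPM in M1 and 2389 to 3462 CPM in Control. The 5 theca and interstitial markers (4 positive, 1 negative) summed to 14401 to 22720 CPM in M1 and 10478 to 20865 CPM in Control. Each of these sums overlapped. The 5 adipocyte markers, of which 2 were tested, summed to 10.1 to 17.9 CPM in M1 and 18.7 to 32.1 CPM in Control, without overlap. All 8 smooth muscle and pericyte markers had negative log2 fold changes (782 to 1041 CPM in M1 and 1031 to 1420 CPM in Control), none with an unadjusted p under 0.05. Of 6 fibroblast and stroma markers, 5 were negative and 1 positive (sums of 1864 to 2224 CPM in M1 and 2077 to 2541 CPM in Control). At an unadjusted p under 0.05 by edgeR, 2 of these were lower in M1, beside 9.17% of all tested genes. Every M1 mouse lay below every Control mouse for 2 and above for 1, beside 11.2% and 11.4% of all tested genes. The part of these cells in the mitochondrial share was not tested.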

How the data were processed

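Ovary RNA of 3 M1 and 3 Control mice was sequenced from oligo-dT selected libraries as paired reads. Per the submitters' processing notes and the study's methods, the authors used Trimmomatic 0.38 for trimming, HISAT2 2.1.0 for alignment (build GRCm38) and featureCounts 2.0.0 for the counts of each gene. The deposited tables hold raw counts per gene, and TPM and FPKM that the authors computed from them. The deposited FPKM were used to check the lengths of the mitochondrial genes. Together with the counts, they also gave the gene lengths behind the length offset and the set of nuclear genes under 1000 bases. The strand setting and the treatment of reads with several matches are not given in the sources used here.

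Groups came from the labels. Counts were filtered (filterByExpr, minimum count 10, minimum total 15), normalized by TMM and tested across 17499 genes with edgeR 4.0.16 (quasi-likelihood, R 4.3.3) with Benjamini-Hochberg adjustment. A call needed an adjusted p under 0.05 together with a fold change over 1.5. DESeq2 1.42.0, limma 3.58.1 (voom, and log2 of TPM plus a pseudocount of 1), a lowess offset for gene length (span 0.5) and other filters were tried. Ratios were tested by exact permutation (scipy 1.17.1). Nuclear copies were found with blastn 2.17.0 against GENCODE vM21 transcripts (at least 200 bases, 95% identity and a mean of 1 CPM). The models were tested on simulated data.

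All genes starting with mt- were named, the copies, and up to 5 genes with the smallest p from each other list that was no marker list. Members and lists were chosen with earlier results of these data known. Each library held 12536440 to 18651402 counts, and since molecules carry no identifiers, intervals cover counting error only. The median over the 7 protein genes not inside the copied stretch, and the share with the chromosome 1 copies added, were chosen after seeing the data.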

Additional observations from a re-analysis of the deposited data

How the results depend on the processing

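By edgeR, 0 of 25 genes were called higher. DESeq2 called 5, edgeR with no filter beyond 1 count called 2 (mt-Tp and mt-Co3), and leaving out 1 library called 0 to 2 (mt-Tp and mt-Rnr1 without Control mouse 1), while 0 were called lower throughout. Over all genes 1 was called higher and 0 lower, against 198 and 228 by DESeq2, 77 and 78 without the filter, and 230 and 552 without Control mouse 1. The median of the 13 protein genes (0.62) was 0.35 with the gene length offset, 0.29 with that offset and the replicate block, and 0.38 on the log2 TPM scale, where the median of all genes was -0.16. It ran from 0.42 to 0.71 when 1 library was left out. The other scalings and filters gave 0.58 to 0.63.

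The log2 ratio of the mitochondrial share (0.58) was 0.43 as a share of the authors' TPM. Leaving out 1 library gave log2 ratios of 0.48 to 0.70 for the mitochondrial share and 0.48 to 0.68 for the protein share. For the rRNA and the tRNA share, leaving out 1 library gave 0.49 to 1.08 and 0.50 to 0.80. It gave differences of -0.741 to 0.0227 percentage points for the light strand share and 0.25 to 0.41 for the log2 mitochondrial to nuclear ratio, which was 0.045 as a mean of log2 CPM. The log2 ratio difference of mt-Nd4 over mt-Nd4l was 0.0074 with 1 added to each count and ran from -0.48 to 0.33, that of mt-Nd6 over mt-Nd5 from -0.030 to 0.054, and that of mt-Atp6 over mt-Atp8 from -1.13 to 0.47.

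Genes with a change of sign were not called in any of these settings. mt-Co2 (-0.10) was 0.062 by limma-voom and 0.051 with the block. With the length offset, mt-Tc was -0.012, mt-Th -0.19, mt-Tl2 -0.060 and mt-Te -0.025. With the offset and the block, mt-Tc was -0.055, mt-Ty -0.0013, mt-Th -0.34 and mt-Tl2 -0.28. On the TPM scale mt-Th was -0.046 and mt-Tl2 -0.091. Leaving out 1 library gave -0.38 to 0.59 for mt-Co2, -0.36 to 0.55 for mt-Th, -0.22 to 1.01 for mt-Tl2 and -1.09 to 0.080 for mt-Atp8. The causes were not tested.

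The replicate block called 0 genes and gave a median of 0.62. Libraries of the same number correlated at 0.067, 0.106 and -0.255 in their deviations from the group means. Not every library correlated best with its own number. Deviations from the mean of so few mice depend on each other, so whether libraries share more than a number cannot be told from this.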
